A study of Homo sapiens with 12 samples.

Results

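A group of 10 genes of the contractile cytoskeleton, of the mesenchymal intermediate filament and of the caveola coat was followed over all arrays of the series, namely ACTA2, TAGLN, CNN1, TPM1, TPM2, CALD1, MYL9, VIM, CAV1 and CAV2. They are 10 of the 19775 genes that the probe table names. Each gene was read from 1 probe set, the one with the highest mean over the 12 arrays among its probe sets annotated to that gene alone. The arrays were Affymetrix HG-U133 Plus 2.0 arrays of total RNA from 2 established breast cancer cell lines. Hs578T is a spindle-shaped line from a breast carcinosarcoma and BT-20 an epithelial line from a breast carcinoma. Both lines were treated for 24 h with 200 nM of an oligonucleotide and the liposomal transfection reagent DOTAP, so every sample below carries DOTAP and an oligonucleotide. The oligonucleotides were M, a double-stranded stretch of CDH13 exon 1 with methylated CpG cytosines, U, the same duplex without methylation, the single-stranded CpG oligonucleotide ODN2006, and its control with GpC in place of CpG. M and U had 2 arrays each in each line, called set 1 and set 2, and ODN2006 and its control had 1 array each in each line. The array codes in the labels place the ODN arrays in one run with set 2 and set 1 in an earlier run. Arrays without an oligonucleotide, from untreated cells or with DOTAP alone, were not analysed here. The labels call the sets biological replicates but do not say how the cultures were separated, so the p-values below measure the spread between these samples only.

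Each value below is a log2 GCRMA value, a measure of the brightness of 1 probe set, and values are set side by side only within a gene because probe sets differ in how brightly they bind. Values under 5 lie close to the background of the array and were treated as not resolved. The treatments differed in their CpG dinucleotides, which are in capitals in the sequences given in the labels. M carries methyl groups on the 4 CpG cytosines of each strand of the U duplex.
ODN2006: tCGtCGttttgtCGttttgtCGtt
ODN2006 control: tgctgcttttgtgcttttgtgctt
CDH13 U, top strand: tCGgatCGccCGgcaCGggcagggtgaggg
CDH13 U, bottom strand: ccctcaccctgccCGtgcCGggCGatcCGa

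Smooth muscle actin, calponin, transgelin, tropomyosins, caldesmon and the regulatory light chain of myosin build and regulate the actomyosin filaments that let a cell pull on its surroundings, and in the breast they are typical of myoepithelial cells and activated fibroblasts. Vimentin forms the intermediate filaments of mesenchymal cells, and caveolins form, with the cavins, the coat of small pits of the plasma membrane. Many contractile genes are controlled by serum response factor (SRF), which binds the CArG box, and by its partners myocardin and the MRTF proteins, which respond to the state of actin.

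Between Hs578T and BT-20 cells the genes were of 3 kinds. ACTA2, CNN1 and TPM2 were under 5 in all 6 BT-20 arrays, VIM was measured there but far lower than in Hs578T, and TAGLN, TPM1, CALD1, MYL9, CAV1 and CAV2 were well above 5 in both lines. In the 8 M and U arrays 9 of the 10 genes were higher in Hs578T and 0 were lower (limma, adjusted p under 0.05), where 34.4% of the 10410 genes tested were called higher and 40.2% lower. The median change of the 10 genes was 2.86 on the log2 scale and that of all genes tested was -0.09. The fit took the M and U arrays of a set as independent. Their deviations from group means correlated at 0.599 in Hs578T and 0.595 in BT-20. The adjusted p of the line comparison may thus be too small and its intervals too narrow. Over all 12 arrays the values of 9 of the 10 genes did not overlap between the lines and were higher in Hs578T, where 29.1% of genes did so. A call in itself was thus common between these lines. All 10 genes passed the filter on dim values, but ACTA2, CNN1 and TPM2 passed it through their Hs578T arrays alone and so had to differ. With values under 5 set to 5, the changes of 5 of the 10 genes were over 3 on the log2 scale, where 4.43% of the genes tested were called with such a rise, and 3 (ACTA2, TPM2 and VIM) were over 5 (1.32%) and also over 8 (0.154%). In bulk RNA, fewer cells that express a gene and less RNA per cell cannot be told apart.

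**Figure D1:**
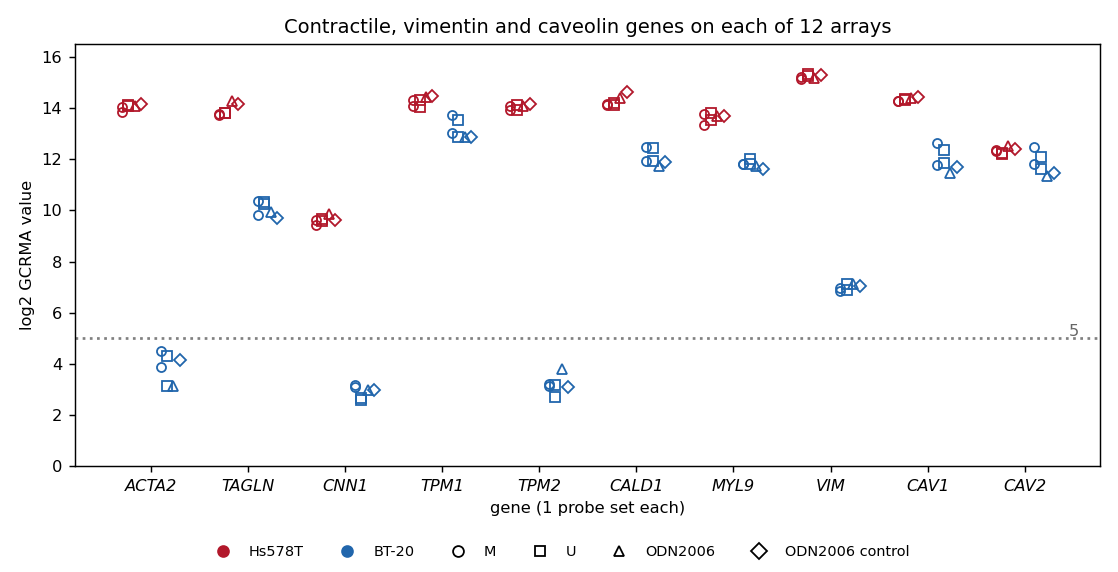
Log2 GCRMA values (vertical axis) of the 10 genes on each of the 12 arrays, Hs578T left and BT-20 right within each gene, with the treatment given by the shape of the point. The dotted line marks 5, and the BT-20 points of ACTA2, CNN1 and TPM2 all lie under it, while only CAV2 overlaps between the lines.

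ACTA2 encodes the smooth muscle form of actin, the filament protein of myofibroblasts and myoepithelial cells. Its log2 values in Hs578T were 14.06 and 13.86 with M, 14.14 and 14.06 with U, 14.07 with ODN2006 and 14.17 with its control. In BT-20 they were 4.50 and 3.90 with M, 4.31 and 3.15 with U, 3.15 with ODN2006 and 4.15 with its control. The 6 Hs578T arrays lay within 0.31 of each other, and all BT-20 arrays were under 5. With the BT-20 value set to 5 the difference was at least 9.03 on the log2 scale, at least 522-fold (measured log2 change 10.06 ± 0.27 SE, adjusted p = 1.73e-07, limma).

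The ACTA2 promoter is shown because it carries the elements that SRF is known to bind. RefSeq (GRCh38.p14) gave promoter windows, 250 bases before to 50 bases after a gene start, for 8 of the 10 genes. The window of TAGLN and that of MYL9 were not matched. A CArG box was searched on these windows, and since this pattern is its own reverse complement, 1 search covers both strands. None of the 8 genes held the exact box (0 of 8), against 1.60% of 27305 genes with a window. A looser form, with at most 1 of the inner bases C or G, also takes in the exact box. It was in 2 of the 8 genes, ACTA2 and CALD1, against 9.88% of the 27305 genes. The looser form was in 1 of the 2 windows of ACTA2 and in 1 of the 4 of CALD1, and those are the windows shown. The match is a description of these letters and not evidence of binding. The 250 bases before the start are given 5′ to 3′ with the loose matches in capitals, which begin 121 and 71 bases before the start in ACTA2 and 26 bases before it in CALD1.
ACTA2, chr10:88952774-88953023 (minus strand): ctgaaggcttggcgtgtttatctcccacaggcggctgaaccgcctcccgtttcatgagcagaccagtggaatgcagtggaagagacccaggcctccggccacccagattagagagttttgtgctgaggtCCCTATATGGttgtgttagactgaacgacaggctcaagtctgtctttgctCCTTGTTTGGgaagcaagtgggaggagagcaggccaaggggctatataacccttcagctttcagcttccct
CALD1, chr7:134711249-134711498 (plus strand): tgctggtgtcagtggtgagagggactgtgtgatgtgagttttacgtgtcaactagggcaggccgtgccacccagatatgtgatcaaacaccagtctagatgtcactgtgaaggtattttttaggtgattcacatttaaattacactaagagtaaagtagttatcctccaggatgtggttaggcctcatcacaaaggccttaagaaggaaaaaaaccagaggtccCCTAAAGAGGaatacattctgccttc

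TPM2 encodes beta-tropomyosin, which lies along the actin filament and is abundant in muscle. It measured 14.07 and 13.93 with M, 14.11 and 13.90 with U, 14.06 with ODN2006 and 14.15 with its control in Hs578T cells. In BT-20 cells it measured 3.24 and 3.14 with M, 3.17 and 2.71 with U, 3.82 with ODN2006 and 3.10 with its control. The BT-20 arrays were all under 5, and the difference was at least 9.01 on the log2 scale, at least 514-fold (measured log2 change 10.94 ± 0.13 SE, adjusted p = 6.97e-09, limma). CNN1 encodes the calponin that binds actin and is a late marker of smooth muscle. Its values in Hs578T cells ran from 9.43 to 9.84 with a median of 9.62, and those in BT-20 cells from 2.60 to 3.16 with a median of 2.99. The gap of CNN1 was at least 4.58 on the log2 scale, at least 24.0-fold (measured log2 change 6.70 ± 0.09 SE, adjusted p = 9.15e-09, limma).

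VIM is the gene of vimentin. Its values in Hs578T were 15.15 and 15.22 with M, 15.25 and 15.33 with U, 15.19 with ODN2006 and 15.29 with its control. In BT-20 they were 6.84 and 6.96 with M, 6.88 and 7.13 with U, 7.11 with ODN2006 and 7.06 with its control. The lowest Hs578T array was 8.02 above the highest BT-20 array, and VIM was above 5 on every BT-20 array. The log2 change was 8.29 ± 0.10 SE, 312-fold with a 95% interval of 265 to 368, and its adjusted p was 6.97e-09 (limma).

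The remaining contractile genes were above 5 on all arrays of both lines. TAGLN, which encodes the actin-bundling protein transgelin, ran from 13.75 to 14.27 in Hs578T (median 13.81) and from 9.70 to 10.36 in BT-20 (median 10.09). It was 12-fold higher in Hs578T (95% interval 9.63 to 15, adjusted p = 9.15e-07, limma). CALD1 encodes caldesmon, which binds actin and tropomyosin and restrains the myosin ATPase. It lay between 14.11 and 14.61 in Hs578T and between 11.73 and 12.46 in BT-20, a 3.90-fold difference (95% interval 2.97 to 5.12, adjusted p = 4.54e-05, limma). MYL9, the regulatory light chain of smooth muscle and non-muscle myosin, lay between 13.36 and 13.81 in Hs578T and between 11.63 and 12.01 in BT-20, a 3.37-fold difference (95% interval 2.72 to 4.17, adjusted p = 2.37e-05, limma). For these 3 genes the lowest Hs578T array was at least 1.35 above the highest BT-20 array on the log2 scale.

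The alpha-tropomyosin gene TPM1 differed far less than TPM2. It measured 14.32 and 14.07 with M, 14.30 and 14.04 with U, 14.42 with ODN2006 and 14.46 with its control in Hs578T cells. In BT-20 cells it measured 13.75 and 13.04 with M, 13.54 and 12.89 with U, 12.87 with ODN2006 and 12.86 with its control. The closest arrays of the lines were 0.29 apart. TPM1 was 1.84-fold higher in Hs578T (95% interval 1.29 to 2.63, log2 change 0.88 ± 0.21 SE, adjusted p = 0.00831, limma). The call was lost when all values under 5 were raised to 5 before the fit (adjusted p = 0.0609). No TPM1 value was under 5 and its log2 change stayed at 0.88. Only the SE (0.25), which limma draws in part from other genes, and the adjustment differed.

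CAV1, the caveolin that caveolae need, and CAV2, which joins it in the coat, are neighbouring genes on chromosome 7 but differed in how far they separated the lines. CAV1 lay between 14.27 and 14.42 in Hs578T and between 11.47 and 12.63 in BT-20, with no overlap. It was 4.39-fold higher in Hs578T (95% interval 3.10 to 6.22, adjusted p = 9.93e-05, limma). CAV2 measured 12.35 and 12.32 with M, 12.20 and 12.26 with U, 12.51 with ODN2006 and 12.39 with its control in Hs578T. In BT-20 it measured 12.49 and 11.83 with M, 12.09 and 11.61 with U, 11.33 with ODN2006 and 11.45 with its control. The BT-20 M array of set 1 was above 5 of the 6 Hs578T arrays, so the lines overlapped. The log2 change of CAV2 was 0.28 ± 0.18 SE with a 95% interval of -0.15 to 0.70 and did not pass the test (adjusted p = 0.194, limma). CAV2 was below 0 with set 1 alone (-0.01) and above it with set 2 alone (0.56, adjusted p = 0.0186), and it was -0.17 after centring on housekeeping genes.

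**Figure D2:**
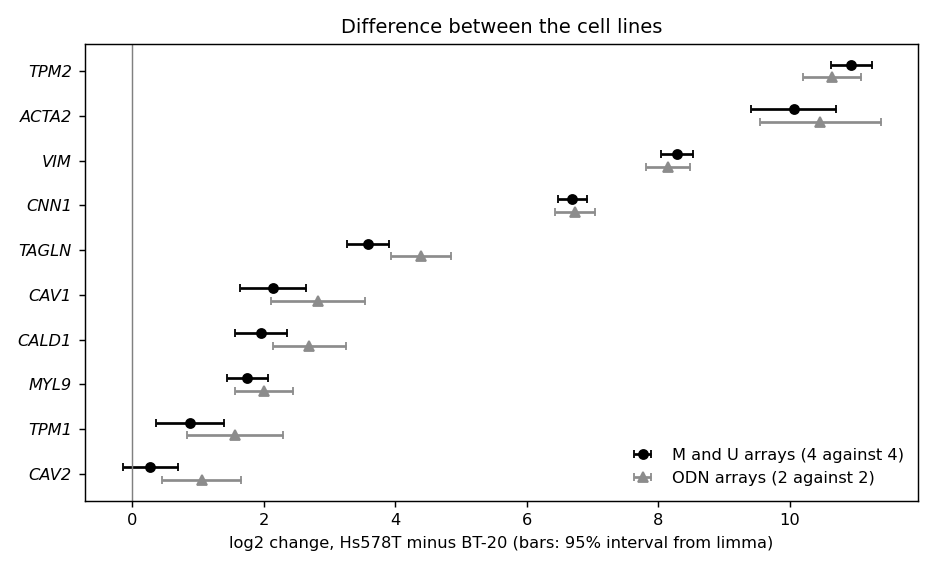
Log2 change of Hs578T minus BT-20 (horizontal axis) for each gene, from the M and U arrays (black circles) and from the ODN arrays (grey triangles), with 95% intervals from limma and values as measured, without a floor at 5. TPM2, ACTA2, VIM and CNN1 lie above 6, and only the CAV2 interval of the M and U arrays crosses 0.

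The same contrast in the ODN arrays, which the M and U comparison did not use, called all 10 genes higher in Hs578T, where 29.7% of 10543 genes were. In that fit the spread came from the M and U groups, and it was assumed that the single ODN arrays vary as those groups do. The log2 changes were 10.65 for TPM2, 10.47 for ACTA2, 8.15 for VIM and 6.74 for CNN1, all against BT-20 values under 5 except VIM. Those of TAGLN (4.39), CAV1 (2.83), CALD1 (2.69), MYL9 (2.00), TPM1 (1.57) and CAV2 (1.06, adjusted p = 0.00846, limma) were each above the estimates from the M and U arrays. With the ODN arrays set against set 2 alone, the difference between the lines was called for 0 of the 10 genes, and 5 had an unadjusted p under 0.05 (limma). That fit leaves out set 1, which the M and U estimates include, so it does not test the shift between these estimates. The CAV2 call was lost with values under 5 raised to 5 (adjusted p = 0.0536), although no CAV2 value was under 5.

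The 10 genes are covered by 37 probe sets, of which 31 reached 5 in at least 2 arrays. Of these 31, 30 were higher in Hs578T than in BT-20 without overlap and 0 were lower. The exception was the CAV2 probe set described above. A second CAV2 probe set, 203323_at, ran from 10.16 to 11.22 in Hs578T and from 8.88 to 9.40 in BT-20, a mean difference of 1.04 in the M and U arrays. The 2 CAV2 probe sets thus differ on whether the lines overlap, and the value of CAV2 depends on the probe set used. All 11 CALD1 probe sets and 5 of 6 TPM1 probe sets were higher in Hs578T without overlap, with log2 differences of 0.79 to 4.02 for CALD1.

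Related genes were read to place the 10 genes among their partners. Of 24 tested partners of the contractile and adhesion apparatus (32 listed), 15 were higher in Hs578T, 2 were lower and 7 did not pass, with a median log2 change of 0.71. Over all 10410 genes tested 34.4% were called higher and 40.2% lower. The 4 with the largest changes as measured were TGFB1I1, a focal adhesion protein also called Hic-5, LMOD1, a smooth muscle actin nucleator, TPM4, a further tropomyosin, and ACTG2, the smooth muscle gamma actin. TGFB1I1 was higher by at least 6.29 on the log2 scale (Hs578T 11.06 to 11.61, BT-20 2.41 to 2.43) and LMOD1 by at least 1.86, and TPM4 by 3.31 and ACTG2 by 2.76. TGFB1I1 and LMOD1 were under 5 in all BT-20 arrays, so they passed the filter through Hs578T alone and had to differ. With BT-20 set to 5, LMOD1 lay below LPP (2.11) and PDLIM5 (1.91), a pair of adaptor proteins of adhesions and the Z-disc. The cytoskeletal actin gene ACTB differed by -0.01, within the spread of the arrays. CNN3 and MYL12B, a calponin and a myosin light chain of non-muscle cells, were lower in Hs578T, with log2 changes of -0.80 and -0.43.

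Of 16 tested regulators of myosin and SRF (19 listed), 7 were higher in Hs578T and 4 were lower. Calls in each direction were common over all 10410 genes tested (34.4% higher and 40.2% lower), so the count does not set the regulators apart. MYOCD, the gene of myocardin, ran from 8.83 to 10.23 in Hs578T and from 2.08 to 2.18 in BT-20, a difference of at least 4.58. MYLK, the kinase that phosphorylates the myosin light chain, ran from 11.28 to 11.76 in Hs578T and from 3.83 to 4.49 in BT-20, a difference of at least 6.42. MYOCD and MYLK thus passed the filter through Hs578T alone and had to differ. PPP1R12A, the targeting subunit of myosin phosphatase, was higher by 2.13, and SRF by 1.88. PPP1CB, the catalytic subunit of that phosphatase, was lower, with a change of -1.41. The MRTF genes encode further SRF partners, and MRTFA changed by 0.05 (adjusted p = 0.863, limma) and MRTFB by -0.64 (adjusted p = 0.00394, limma).

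The exact CArG box was held by 10 of 29 partners with a window (34.5%) and by 5 of 18 regulators (27.8%), against 1.60% of all genes. These lists were drawn up from textbook knowledge that includes known SRF targets, so the share is a description of the lists. The boxes of TGFB1I1, ACTG2, TPM4, MYLK and SRF, which are among the genes named above, are shown in capitals with up to 15 bases on each side (RefSeq, GRCh38.p14), and in ACTG2 and SRF there are 2.
TGFB1I1, chr16:31473139-31473178 (plus strand): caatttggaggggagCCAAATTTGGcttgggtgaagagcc
ACTG2, chr2:73892883-73892922 (plus strand): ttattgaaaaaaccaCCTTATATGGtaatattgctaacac
ACTG2, chr2:73892920-73892959 (plus strand): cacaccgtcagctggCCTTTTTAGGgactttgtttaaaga
TPM4, chr19:16067350-16067389 (plus strand): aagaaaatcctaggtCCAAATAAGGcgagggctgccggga
MYLK, chr3:123620618-123620657 (minus strand): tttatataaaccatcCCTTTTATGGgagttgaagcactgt
SRF, chr6:43171224-43171263 (plus strand): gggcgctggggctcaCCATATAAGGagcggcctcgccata
SRF, chr6:43171244-43171268 (plus strand): taaggagcggcctcgCCATAAAAGG

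Of the other genes of the caveola coat, cavins and membrane-shaping proteins, 6 were tested (8 listed). Of these, 4 were higher in Hs578T and 1 was lower, where 34.4% of the 10410 genes tested were called higher and 40.2% lower. EHD2, the ATPase at the neck of the caveola, was higher by at least 5.38 (Hs578T 9.90 to 10.81, BT-20 2.37 to 3.28). CAVIN2 was higher by at least 2.63, CAVIN3 by 4.52 and CAVIN1, the cavin that caveolae need, by 1.09. EHD2 and CAVIN2 were under 5 in all BT-20 arrays, so they passed the filter through Hs578T alone and had to differ. PACSIN3, a membrane-bending protein, was lower, with a change of -1.19. Among the other intermediate filament genes (6 tested of 13) only 1 was higher, SYNC, the gene of syncoilin, by at least 5.51, while INA and SYNM were lower. INA was under 5 in Hs578T, and its change with that value set to 5 was -0.68, and that of SYNM was -1.24. SYNC was under 5 in all BT-20 arrays and INA in all Hs578T arrays, so each passed the filter through the other line alone and had to differ. Centring on housekeeping genes subtracted their median on each array, which was the value of PGK1. PGK1 was itself higher in Hs578T by 0.45 (adjusted p = 0.00451, limma), so this scaling rests on 1 gene that differed between the lines. It moved the median of all genes to -0.53 and their split to 2418 higher and 5891 lower (3580 and 4189 as deposited). The partners then split into 10 higher and 6 lower and the regulators into 4 higher and 6 lower. Under this scaling 9 of the 10 genes were again called higher.

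**Figure D3:**
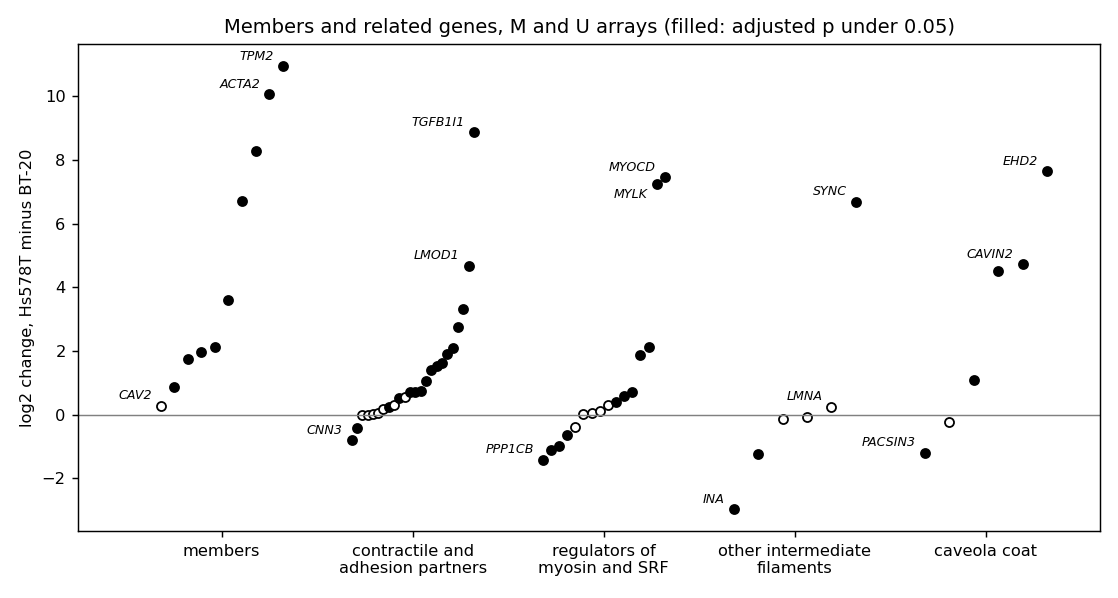
Log2 change of Hs578T minus BT-20 in the M and U arrays (vertical axis) for the 10 genes and the tested genes of 4 related lists, each point 1 gene, filled where the adjusted p was under 0.05. Values are as measured, without a floor at 5, and the lists of partners, regulators and caveola coat hold genes above 4 beside genes near 0.

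The cell line labels were checked against defining markers. All 7 epithelial markers were lower in Hs578T, CDH1 at a mean of 2.69 in Hs578T and 13.21 in BT-20, and all 8 mesenchymal markers were higher. Over all 10410 genes tested 40.2% were called lower and 34.4% higher. Of these markers, 5 epithelial ones were under 5 in all Hs578T arrays and 6 mesenchymal ones in all BT-20 arrays. Those passed the filter through the other line alone and had to differ. Of the smooth muscle markers, MYOCD, LMOD1 and ACTG2 were higher in Hs578T, but MYH11, the myosin heavy chain of mature smooth muscle, and DES, desmin, were under 5 on all arrays of both lines. The 2 keratins of basal cells parted, KRT14 being bright in Hs578T (12.38 to 13.97) and under 5 in BT-20, and KRT5 being under 5 in Hs578T and bright in BT-20 (12.36 to 13.06). OXTR, a further basal or myoepithelial marker, was not called (log2 change 0.03, adjusted p = 0.963, limma). Leukocyte markers were under 5 in both lines, as were the endothelial markers VWF and TEK. The other endothelial markers parted, PECAM1 running from 4.08 to 6.69 in Hs578T and from 2.56 to 2.97 in BT-20 (called higher in Hs578T) and CDH5 from 2.62 to 2.69 in Hs578T and from 7.29 to 9.48 in BT-20 (called lower), and their part in the results was not tested. In the same arrays the median per array was 3.01 to 3.09, 33.9% to 35.0% of 54675 probe sets were at 5 or above, correlations across probe sets were 0.985 to 0.998 within a line and 0.887 to 0.906 between lines, and no 2 arrays were identical.

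Methylation of the CDH13 duplex was not accompanied by a called change of any of the 10 genes. M against U gave 0 of 10 calls in each line, with the lines joined and for their difference, where 0% of 10410 genes were called in each (limma, 680, 174, 543 and 258 genes at an unadjusted p under 0.05 in these 4 fits). In Hs578T the log2 changes lay between -0.14 for ACTA2 and 0.11 for CAV2. Their 95% intervals were widest for ACTA2 (-1.06 to 0.77) and for TPM1 (-0.70 to 0.75). The fit shares 1 spread per gene between the lines. For ACTA2 the SD of the 4 M and U arrays was 0.60 in BT-20, where values were under 5, and 0.12 in Hs578T. The intervals therefore do not give the size of change that could be detected in Hs578T. In BT-20 CNN1 had the smallest unadjusted p of the 10 genes, with 3.16 and 3.12 with M and 2.60 and 2.66 with U. The M arrays were above the U arrays, but all 4 values were under 5, and the difference of 0.51 ± 0.13 SE did not pass (adjusted p = 1.00, limma). VIM changed by -0.11 in Hs578T (95% interval -0.45 to 0.22) and by -0.10 in BT-20 (-0.44 to 0.23).

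ODN2006 against its control, joined over both lines, called 0 of the 10 genes and 1 of 10543 genes (0.00948%), with 0 of the 10 and 490 of all genes at an unadjusted p under 0.05 (limma). The changes lay between -0.55 for ACTA2, whose BT-20 values were under 5, and 0.32 for TPM2. The TPM2 value also rests on BT-20 values under 5, 3.82 with ODN2006 and 3.10 with its control, against 14.06 and 14.15 with the same oligonucleotides in Hs578T. VIM changed by -0.02 with a 95% interval of -0.36 to 0.31. The single arrays gave no spread of their own, and the fit took it from the M and U groups.

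The kinds of oligonucleotide were compared by setting the ODN2006 and control arrays together against the M and U arrays of set 2, which share their run. Strandedness, sequence, chemistry and culture cannot be told apart in this comparison. It was chosen with earlier results known, and the 2 arrays of a kind in a line were taken as replicates. Deviations of M and U arrays of a set from their group means correlated at 0.599 in Hs578T, so the adjusted p may be too small. At 1 probe set per gene, 0 of the 10 genes were called in Hs578T, where 9.03% of 10375 genes were, and 0 in BT-20, where 0% were (534 at an unadjusted p under 0.05). In Hs578T 9 of the 10 changes were above 0 and 3 had an unadjusted p under 0.05, led by TAGLN with 14.27 and 14.14 in the ODN arrays and 13.75 and 13.82 in the set 2 M and U arrays (log2 change 0.42 ± 0.12 SE, adjusted p = 0.0774, limma). CALD1 (0.40) and TPM1 (0.38) were next, at adjusted p of 0.0845 and 0.0654. In BT-20 TAGLN moved the other way, with 9.93 and 9.70 in the ODN arrays and 10.36 and 10.25 in the set 2 arrays, a change of -0.49 ± 0.12 SE that did not pass (adjusted p = 0.611, limma). The difference between the lines for TAGLN was 0.91 ± 0.17 SE and missed the threshold (adjusted p = 0.108, limma), where 0.27% of genes passed.

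The dimmer probe sets of the same genes gave a different count in Hs578T. Fitted over all 21231 probe sets that passed the filter, 12 of the 21 other probe sets of the 10 genes were higher in the ODN arrays and 0 were lower, while 0 of the 10 brightest were called. Of these 12, 1 (CALD1 215198_s_at) passed the filter through the ODN arrays alone and so had to differ. The other 11 had further arrays at 5. In CALD1 215199_at and MYL9 244149_at this was only 1 array, too few to pass the filter without the ODN arrays. Their calls thus also depend on the group in which they were high. With values under 5 raised to 5 the count was 14, where 6.64% of all probe sets were called higher. By comparison, 5.95% of all probe sets were called higher, and 5.91% of the 8094 that were not the brightest of their gene. In BT-20 0 of 31 were called, where 0.00471% of probe sets were. The probe sets of a gene share their transcripts and their arrays and are not independent, and 10 of the 21 belong to CALD1. This comparison of probe sets was chosen after their values were seen.

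**Figure D4:**
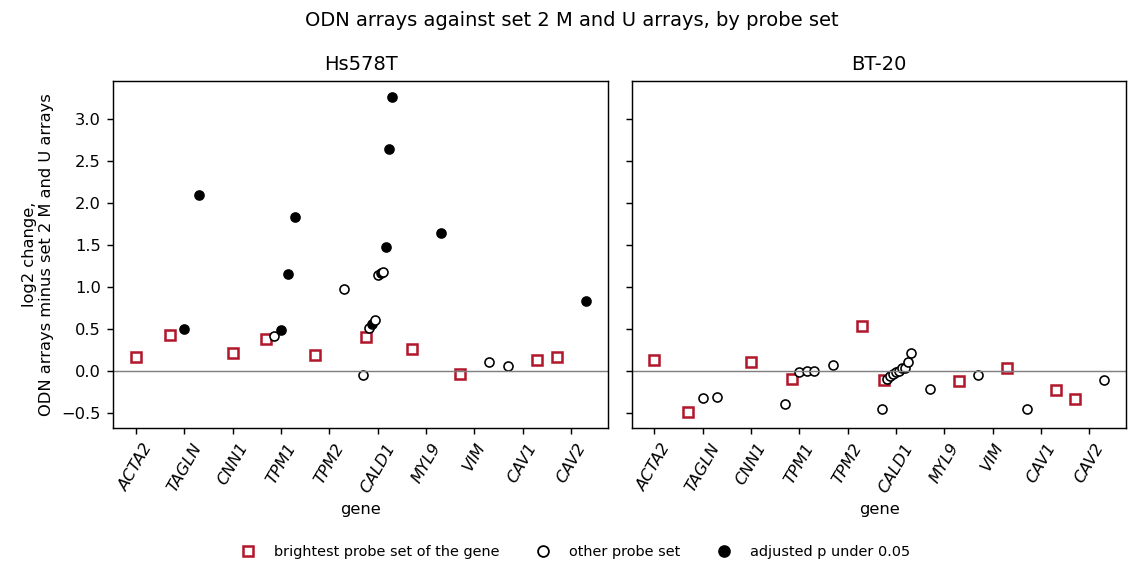
Log2 change of the ODN arrays minus the set 2 M and U arrays (vertical axis) for each probe set of the 10 genes that reached 5 in at least 2 arrays, Hs578T on the left and BT-20 on the right. Squares are the brightest probe set of a gene and circles the others, and all filled points (adjusted p under 0.05) are circles in Hs578T.

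The changed probe sets were spread over 5 genes. TAGLN probe set 226523_at measured 7.62 with ODN2006 and 7.12 with its control, against 5.31 and 5.32 with M and 5.13 and 5.24 with U in Hs578T. Both ODN arrays were above all 4 M and U arrays, and the change against set 2 was 2.09 ± 0.35 SE (adjusted p = 0.0200, limma). CALD1 probe set 215198_s_at measured 6.12 with ODN2006 and 6.26 with its control, against 4.99 and 3.41 with M and 4.20 and 3.69 with U. All 4 M and U values were under 5, so with these set to 5 the change against set 2 was at least 1.19 on the log2 scale. Its neighbour in size, CALD1 215199_at, measured 6.88 with ODN2006 and 7.57 with its control, against 6.15 and 2.89 with M and 4.85 and 5.02 with U. The M and U arrays varied by more than 3 there, and with values under 5 raised to 5 the change was 2.21 ± 0.21 SE (adjusted p = 0.00375, limma). TPM1 238688_at measured 8.21 with ODN2006 and 7.71 with its control, against 7.18 and 5.70 with M and 6.37 and 6.54 with U, a change of 1.84 ± 0.31 SE (adjusted p = 0.0199, limma). MYL9 244149_at measured 7.30 with ODN2006 and 6.41 with its control, against 5.27 and 4.99 with M and 5.92 and 5.44 with U, a change of 1.64 ± 0.29 SE (adjusted p = 0.0226, limma). CAV2 203323_at measured 11.07 with ODN2006 and 11.22 with its control, against 10.29 and 10.16 with M and 10.25 and 10.45 with U, a change of 0.83 ± 0.16 SE (adjusted p = 0.0294, limma). In each of the last 3, both ODN arrays lay above all 4 M and U arrays of Hs578T.

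In 18 of the 21 other probe sets both ODN arrays of Hs578T were above all 4 M and U arrays of that line, set 1 included, where 17.0% of all probe sets were. This count requires both ODNs, one with CpG and the other with GpC, to lie on the same side, so it does not compare them. With the M and U arrays of both sets in the fit, 5 of the 21 were called, where 4.52% of 21696 probe sets were called higher. The count was 13 after quantile normalization and 10 after centring on housekeeping genes. The dimmer probe sets of VIM and CAV1 were not called, and VIM 1555938_x_at lay at 7.07 with ODN2006 and 7.15 with its control, within the 6.40 to 7.33 of the M and U arrays. Which transcripts the dimmer probe sets read is not given in the files.

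In BT-20 the sets rather than the treatments separated some of the genes. Set 1 against set 2, a comparison chosen after the values were seen, called 3 of the 10 genes higher in set 1, where 1.83% of 10410 genes were called higher. They were TPM1, CALD1 and CAV1. CAV1 measured 12.63 with M and 12.37 with U in set 1, against 11.79 with M and 11.84 with U in set 2 (log2 change 0.69 ± 0.12 SE, adjusted p = 0.0384, limma). The set 2 arrays and the ODN arrays of BT-20, at 11.47 and 11.70, were all below those of set 1. TPM1 changed by 0.68 ± 0.12 SE (adjusted p = 0.0384) and CALD1 by 0.52 ± 0.09 SE (adjusted p = 0.0445), and CAV2 by 0.57 ± 0.16 SE without passing (adjusted p = 0.118, limma). Of the 10 genes, 0 were called after quantile normalization or after centring on housekeeping genes, and between 0 and 3 without 1 array. M and U arrays of a set are not independent here (their deviations correlated at 0.595 in BT-20), so the adjusted p may be too small. Set and array run cannot be told apart.

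In Hs578T set 1 against set 2 called 0 of the 10 genes, where 2.74% of genes were called. CAV1 changed by 0.02 (95% interval -0.26 to 0.30) and CALD1 by 0.07 (-0.15 to 0.30) in that line. The difference between lines was called for 0 of the 10, where 1.28% of genes were, and was -0.67 for CAV1 (adjusted p = 0.132, limma).

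Within BT-20 TPM1, CALD1, CAV1 and CAV2 varied together over the 6 arrays, with pairwise Pearson r of 0.93 to 0.98, and VIM ran opposite to them (r of -0.93 to -0.88). The 6 arrays share their line and fall into a set 1 pair and the rest, so these are descriptions of that split, and the 4 genes were picked after their values were seen. Under quantile normalization the r of the 6 pairs were 0.92 to 0.98, and 0.87 to 0.96 after centring on housekeeping genes. In Hs578T the same 4 genes had r of 0.55 to 0.92, and r of -0.47 to 0.15 with VIM. These depended on the scaling, the 6 pairs having r of 0.41 to 0.87 under quantile normalization and 0.60 to 0.89 after centring on housekeeping genes, and the r with VIM being -0.54 to 0.12 and 0.00302 to 0.671 under the same scalings. The closest pairs in Hs578T were TPM1 with TPM2 and TAGLN with CAV1, each at 0.93.

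The genes most like the mean of the 10, by Pearson r over 12 arrays after the mean of each line was removed, were KCTD20 (0.95), MAP3K20 (0.94), AJUBA (0.94), CRIM1 (0.93) and MSRB3 (0.93). In BT-20 the mean of the 10 genes deviated from the line mean by 0.28 with M and 0.19 with U in set 1. It deviated by 0.01 with M and -0.19 with U in set 2, -0.17 with ODN2006 and -0.13 with its control. The BT-20 mean includes ACTA2, CNN1 and TPM2 at values under 5. In Hs578T the mean deviated by 0.11 with ODN2006, 0.12 with its control, -0.03 and -0.14 with M, and 0.01 and -0.08 with U. KCTD20 ran from 10.91 to 11.76 in Hs578T and from 9.65 to 10.84 in BT-20.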

How the data were processed

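The submitters computed the deposited values, 1 log2 value per probe set and array, with GCRMA in R 2.4 per the labels. They do not state whether all 12 arrays were normalized together, and the build and probe annotation are not given in the sources used here. Of 54675 probe sets, 41097 name 1 gene in the probe table, 1801 several and 11777 none. RefSeq gave 41043 of them a current symbol by gene ID, and 54 kept the table's symbol.

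Comparisons were fitted with limma 3.58.1 in R 4.3.3 on group means over all genes with log2 values of at least 5 in at least 2 arrays, with Benjamini-Hochberg adjustment and a threshold of 0.05. The main fits had 4 residual degrees of freedom, and the number of arrays limits the precision. ODN arrays were compared with set 2 because the labels put them in 1 run.

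The members and the related lists were chosen with earlier results of these data known. Named from the lists were up to 4 genes per list with the largest change between the lines past the threshold, other genes named from the lists being chosen after their values were seen, and the 5 genes most like the members.

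The set numbers pair M and U arrays of a line through their array runs. Deviations from group means correlated at 0.599 in Hs578T and 0.595 in BT-20, and at 0.0984 to 0.131 between lines (10410 genes, not independent). Set was therefore also used as a block, within each line for M against U and as 1 term common to both lines for the line comparison. Alternatives were no filter, limma's trend and robust settings, quantile normalization, centring on housekeeping genes, values under 5 raised to 5, the mean of all probe sets of a gene, leaving out each array, and each set alone. The centring used the median of the 9 measured housekeeping genes on each array, which was PGK1 throughout.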

Additional observations from a re-analysis of the deposited data

How the results depend on the processing

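Between the lines, 9 of 10 members were called higher in Hs578T in the M and U arrays, 8 with values under 5 raised to 5, 10 with the mean of all probe sets of a gene or with set 2 alone, and between 9 and 10 without 1 array. Over all genes 7769 were called in either direction in the main setting, 6599 with values raised to 5 and 6783 with the mean of all probe sets. CAV2 turned sign after centring on housekeeping genes (-0.17) and with set 1 alone (-0.013). That centring follows PGK1, which was itself called higher in Hs578T. CAV2 was called without the BT-20 M array of set 1 (log2 change 0.44, adjusted p = 0.0368) and with the mean of its probe sets (0.44, adjusted p = 0.00743).

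For the ODN arrays against set 2 in Hs578T, 0 members were called in the main setting, 1 without the filter on dim genes, 3 with the trend and robust settings and 4 with the mean of all probe sets (TAGLN, TPM1, CALD1 and MYL9). For its difference between lines 1 member, TAGLN, was called with the trend and robust settings. For set 1 against set 2 in BT-20, 3 members became 1 without the filter, with values raised to 5 or with the mean of all probe sets, 0 with quantile normalization or centring on housekeeping genes, and 0 to 3 without 1 array. The counts were 0 without any 1 of 5 arrays, the Hs578T M and U arrays of set 1, the BT-20 M arrays of both sets and the BT-20 U array of set 2. For its difference between lines 1 member, CALD1, was called without the filter, with the trend and robust settings and with values raised to 5. The cause of these shifts was not tested, except that fewer arrays leave fewer degrees of freedom. A setting can also change how many of all genes are called. Those numbers are not given here for these fits, so the shifts are not read as particular to the members.

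With set as a replicate block, 9 of 10 members were called higher in Hs578T and 0 of 10 between M and U, in each of the 4 fits, so the block changed no call. Among 1568 other values of members that had not been called, the sign changed in 117, of which 0 were called, and 12 were newly called. Signal over background limits ACTA2, CNN1 and TPM2, which had only an upper bound of 5 in BT-20.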
